A study of Mus musculus with 12 samples.

Results

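Genes of the tricarboxylic acid (TCA) cycle and of pyruvate oxidation were followed in mouse muscle that held a vascular anomaly and in normal mouse muscle. The set holds 35 genes chosen by their function, with earlier results of these data known. All 35 were found by their deposited symbol among 30389 genes of the table. By role, 13 encode enzymes of the TCA cycle, 12 carry pyruvate into it or control that step, 6 form the malate-aspartate shuttle and 4 start the oxidation of branched-chain amino acids.

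RNA was taken from 6 animals of the C57BL/6 strain, with 2 libraries per animal (12 in all). All 6 animals carried the SB Transposase (the Sleeping Beauty enzyme, which moves DNA transposons) and onc3, a transposon that it can move. The 3 anomaly animals also carried VEC-Cre, in which Cre recombinase is driven by the promoter of VE-cadherin, a gene of endothelial cells, and their libraries came from dissected lesions. The 3 normal animals had no Cre and gave normal muscle. Anomaly animals 1 and 3 gave 2 pieces of tissue each and anomaly animal 2 gave 2 lesions. Animals and pieces are numbered in order of deposit, each animal counts as 1 replicate, with n = 3 in a group, and age is not given. Whole tissue was sequenced, so a difference in a gene can come from fewer cells of a type or from less RNA per cell, and these cannot be told apart.

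The recovered depth was 254404 reads in piece 1 of anomaly animal 1, 9650550 to 18476461 reads in the other anomaly libraries and 17380211 to 32155879 reads in normal libraries. In the shallow library 1 read was worth 1.85 CPM (a read count scaled to the size of the library), against at most 0.0719 CPM in the other libraries, so values near 2 CPM there rest on 1 read. Of 12 muscle fibre markers, 9 were lower in anomaly tissue and 3 did not pass the test (Mb, Myh2 and Tnnt1). Their summed level was 258 to 46337 CPM in anomaly libraries and 329450 to 381910 CPM in normal libraries, and none was at 0 in any library. Markers of endothelium (8 of 8) and macrophages (6 of 6) were higher in anomaly tissue. The 4 markers of dividing cells summed to 165 to 590 CPM in anomaly libraries and 0.745 to 1.76 CPM in normal libraries, but each passed the filter on low values through the anomaly group only, so no count of them is read. Of 6 fibroblast markers, 3 were higher (Col1a1, Col1a2 and Thy1) and 3 did not pass and had negative differences (Dcn at -2.32, Lum at -0.60 and Pdgfra at -0.15). None of 6 adipocyte markers passed the test in either direction.

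Pyruvate from glycolysis enters mitochondria through a carrier and is turned into acetyl-CoA by the pyruvate dehydrogenase complex, which kinases switch off and phosphatases switch on. The TCA cycle then oxidises the acetyl group and yields NADH for the respiratory chain. Skeletal muscle is rich in these enzymes, relies on the malate-aspartate shuttle to bring cytosolic reducing equivalents into mitochondria, and is a main site where branched-chain amino acids lose their amino group.

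Of the 35 genes, 32 were lower in anomaly tissue, 2 were higher (Idh1 and Pdk3) and 1 (Pdk4) did not pass the test (limma on log2(CPM + 1) of 3 against 3 animals, Benjamini-Hochberg adjusted p under 0.05). Among all 14687 genes tested, 31.0% were lower and 32.4% were higher by the same rule. In 32 genes all 3 anomaly animals lay below all 3 normal animals, and in 2 genes all 3 lay above, where 35.4% and 37.6% of all genes tested did so. The median log2 fold change of the 35 genes was -2.85, against 0.09 over all genes tested and -1.21 over a reference list of 20 nuclear genes for other mitochondrial functions (protein import, folding and proteolysis, the outer membrane, inner membrane shape and transcription of mitochondrial DNA), of which 17 were lower and 3 did not pass. Summed over the 35 genes, the level was 1006 to 4834 CPM in anomaly libraries and 12865 to 16381 CPM in normal libraries. The libraries of the groups did not overlap in 33 of the 35 genes, the exceptions being Pdk1 and Pdk4, while this held for 56.3% of all genes tested. Those of the 32 lower genes that are given below by their fold change alone had adjusted p-values between 0.000423 (Dlat) and 0.00621 (Got2). The libraries were unstranded, and exons of Bcat2, Got2, Slc25a11, Mdh1 and Idh3b share 622, 434, 189, 52 and 5 bases with a gene on the other strand, whose reads cannot be told apart from theirs.

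**Figure D1:**
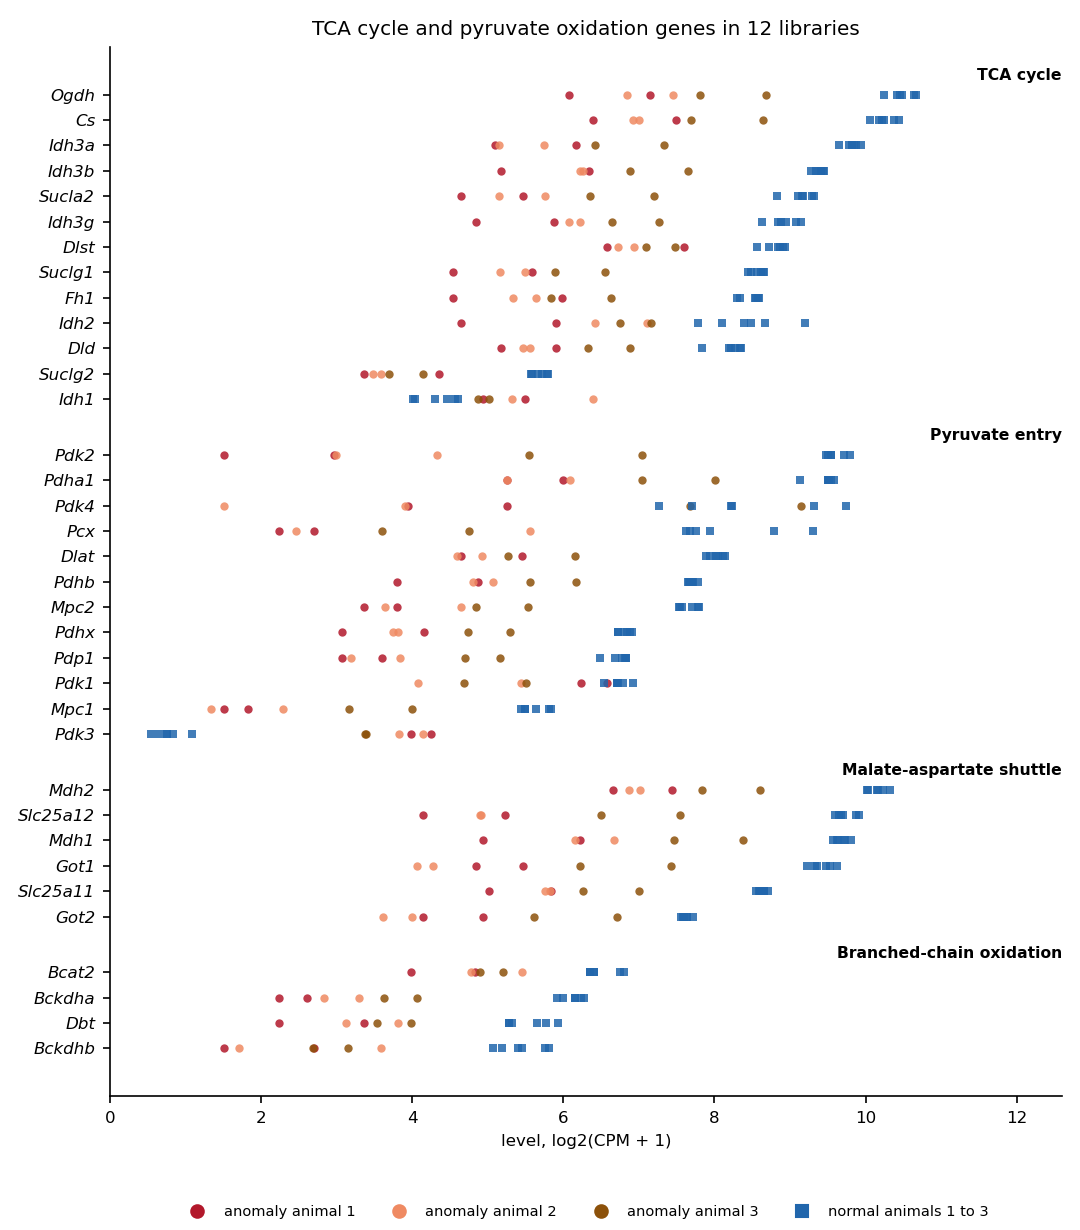
Level of each of the 35 genes, in log2(CPM + 1), in 12 libraries, ordered within each role by level in normal muscle. Circles are the 2 libraries of each anomaly animal and squares are the 6 normal libraries, and circles lie left of the squares except in Idh1 and Pdk3, where they lie right, and in Pdk1 and Pdk4, where they overlap.

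The size of these differences depends on how libraries were scaled, because the deposited CPM held a factor for RNA composition. With library totals alone, the median of all genes tested moved to 0.97, with 11.5% of genes lower and 55.8% higher, and the median of the 35 genes was -1.71, which is -2.68 relative to all genes. With the trimmed mean of M-values recomputed from the reads, the median of all genes was -0.33, with 40.4% lower and 25.1% higher, and the median of the 35 genes was -3.29. Under library totals 29 of the 35 genes were lower and 2 higher. Idh2, Pdk1 and Bcat2 were the 3 that no longer passed.

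The 3 largest differences among the 35 genes were falls of Pdk2, Pcx and Slc25a12. Their sequence upstream of the start site is shown because they moved most, beside that of Pdk3, the gene that rose most, and of Sucla2, which holds 1 of the motifs searched; these last 2 were chosen after their values were seen. Each is the 250 bases before a RefSeq start site on GRCm38.p6, written 5′ to 3′ on the strand of the gene, and capitals mark the NRF1 core.
Pdk2 (chr11:95041372-95041621, minus strand): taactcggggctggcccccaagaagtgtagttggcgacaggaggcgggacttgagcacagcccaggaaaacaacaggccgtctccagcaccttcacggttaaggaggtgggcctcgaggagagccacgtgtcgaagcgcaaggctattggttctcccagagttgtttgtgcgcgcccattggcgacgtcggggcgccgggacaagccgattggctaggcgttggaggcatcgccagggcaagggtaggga
Pcx (chr19:4510222-4510471, plus strand): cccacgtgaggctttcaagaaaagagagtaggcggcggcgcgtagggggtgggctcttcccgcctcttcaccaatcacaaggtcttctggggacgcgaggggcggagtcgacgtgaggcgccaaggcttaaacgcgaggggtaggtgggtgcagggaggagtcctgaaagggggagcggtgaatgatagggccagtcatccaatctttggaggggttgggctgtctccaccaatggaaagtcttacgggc
Slc25a12 (chr2:71367756-71368005, minus strand): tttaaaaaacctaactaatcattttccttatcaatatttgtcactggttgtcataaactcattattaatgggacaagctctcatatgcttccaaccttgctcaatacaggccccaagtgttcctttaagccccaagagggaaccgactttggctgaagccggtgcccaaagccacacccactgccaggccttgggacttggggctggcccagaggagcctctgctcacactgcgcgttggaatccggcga
Pdk3 (chrX:93832151-93832400, minus strand): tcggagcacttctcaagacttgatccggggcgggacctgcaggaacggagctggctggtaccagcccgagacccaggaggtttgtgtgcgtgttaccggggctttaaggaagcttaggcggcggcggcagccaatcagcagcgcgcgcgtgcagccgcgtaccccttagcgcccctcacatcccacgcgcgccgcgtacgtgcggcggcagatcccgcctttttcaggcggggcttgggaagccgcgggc
Sucla2 (chr14:73552536-73552785, plus strand): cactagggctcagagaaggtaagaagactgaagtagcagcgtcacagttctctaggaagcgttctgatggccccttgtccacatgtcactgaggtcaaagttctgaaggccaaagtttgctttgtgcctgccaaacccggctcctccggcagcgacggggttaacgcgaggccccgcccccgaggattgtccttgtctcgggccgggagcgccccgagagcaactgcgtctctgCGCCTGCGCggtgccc

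The upstream stretches of Pdk2, Pcx, Pdk3 and Sucla2 held 60.8% to 67.6% G and C with 16 to 29 CpG pairs, whereas that of Slc25a12 held 49.6% with 6. In RefSeq windows of 300 bases (250 before and 50 after a start), 32 of the 35 genes were matched, with 44 windows. Over the 250 bases before the start, their median G and C content was 60% with 16.5 CpG pairs, against 52.4% and 6 over all 32851 windows. The NRF1 core (GCGCANGCG) stood in 4 of the 44 windows (9.09%), in Dld, Ogdh and Sucla2, against 6.25% of all windows; the same site of Ogdh lies in 2 overlapping windows. The ETS or GABP element (CCGGAAGT) stood in 1 window, of Dlst, against 3.89% of all windows. The YY1 element (AAGATGGC) stood in 2 windows, of Bckdha and Idh3g, against 2.75%. The oestrogen-related receptor element (TNAAGGTCA) stood in none of the 44, against 1.28%. Each motif was searched on both strands, no match overlapped a match of another motif, and a match is a description of letters only.

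Entry of pyruvate into mitochondria was represented by Mpc1 and Mpc2, which encode the subunits of the mitochondrial pyruvate carrier, and both were lower in anomaly tissue. The level of Mpc2 was 11.1, 17.8 and 36.5 CPM in anomaly animals 1 to 3 and 185, 215 and 204 CPM in normal animals 1 to 3. Mpc2 differed by -3.35 ± 0.40 (SE) on the log2 scale (adjusted p = 0.000886), and anomaly animal 3 was the highest of its group without reaching the normal range. Mpc1 stood at 2.21, 2.72 and 11.5 CPM in anomaly animals and at 44.2, 55.9 and 45.5 CPM in normal animals, a difference of -3.26 ± 0.52 (adjusted p = 0.00236), or -3.88 without anomaly animal 3. In the shallow library Mpc1 rested on 1 read. Exons of Mpc1 share 480 bases with 4930506C21Rik on the other strand, which an unstranded library cannot separate.

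Genes of the pyruvate dehydrogenase complex fell together. Pdha1, encoding the catalytic E1 alpha subunit that the kinases phosphorylate (chromosome X, 160122209 to 160138413, GRCm38), had 50.02, 52.2 and 194 CPM in anomaly animals and 726, 756 and 643 CPM in normal animals. It differed by -3.19 ± 0.53 (adjusted p = 0.00287), or -3.81 without anomaly animal 3, and the 2 pieces of anomaly animal 3, at 130 and 257 CPM, were the highest of the anomaly libraries. Its exons share 603 bases with Map3k15 on the other strand. Pdhb, the E1 beta subunit, had 20.6, 29.8 and 58.8 CPM in anomaly animals and 201, 214 and 206 CPM in normal animals, a difference of -2.65 ± 0.38 (adjusted p = 0.00167). Dlat, the E2 acetyltransferase core, and Pdhx, which anchors E3 to that core, differed by -2.85 ± 0.27 and -2.68 ± 0.37. Per kilobase of exon, Pdhb and Dlat had like levels in normal muscle (53.6 and 53.2 CPM per kb), below Pdha1 (190 CPM per kb).

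The 4 pyruvate dehydrogenase kinases, which inactivate the complex by phosphorylating E1 alpha, did not move together. Pdk2 (ENSMUSG00000038967, protein coding, chromosome 11, 95026258 to 95041354, GRCm38) fell most, with 4.34, 13.1 and 88.5 CPM in anomaly animals 1 to 3 and 730, 866 and 734 CPM in normal animals. Its difference was -5.53 ± 0.96 (adjusted p = 0.0033). The 6 anomaly libraries spread from 1.85 CPM, a single read, to 131 CPM, and all lay below the lowest normal library at 713 CPM. Without anomaly animal 3 the difference was -6.65, and without anomaly animal 1 it was -4.62.

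Pdk3 (ENSMUSG00000035232, protein coding, chromosome X, 93764607 to 93832201) rose. It had 16.5, 15.0 and 9.45 CPM in anomaly animals and 0.628, 0.911 and 0.622 CPM in normal animals, or 13.6 ± 3.69 against 0.720 ± 0.165 CPM (SD, n = 3). The log2 difference was 3.06 ± 0.26 (adjusted p = 0.000315), and the lowest anomaly library (9.43 CPM) was above the highest normal library (1.13 CPM). Pdk3 passed the filter of at least 1 CPM through the anomaly group only, so its inclusion already required it to be higher there.

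Pdk1 differed by -1.32 ± 0.42 on the log2 scale (adjusted p = 0.0328). Its levels were 84.4, 29.1 and 34.5 CPM in anomaly animals and 105, 98.2 and 115 CPM in normal animals. The animals of the groups did not overlap, but piece 1 of anomaly animal 1, at 94.5 CPM, lay within the normal libraries (92.4 to 120 CPM). Pdk1 lost its call in 8 of 20 other settings, among them each removal of a normal animal (adjusted p 0.0734 to 0.0946), of anomaly animal 2 (0.0936) and of anomaly animal 3 (0.0753), and with library totals its difference was -0.18 (adjusted p = 0.732).

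Pdk4, the kinase induced by fasting in muscle, had 25.7, 7.90 and 385 CPM in anomaly animals and 299, 747 and 180 CPM in normal animals. The groups overlapped, since anomaly animal 3 stood between normal animals 1 and 2, and the difference of -3.18 ± 1.42 did not pass (adjusted p = 0.0915). Without anomaly animal 3 it was -4.76 (adjusted p = 0.00328), and without anomaly animal 2 it was -1.91 (adjusted p = 0.238). Anomaly animal 3 held most of the remaining muscle fibre transcripts. The 12 fibre markers summed to 15199 and 46337 CPM in its pieces and to at most 2512 CPM in the other anomaly libraries. In normal libraries they summed to 329450 to 381910 CPM. Mb, the oxygen store of oxidative fibres, had 2079 and 5501 CPM in the pieces of animal 3 and 1943 to 3687 CPM in normal libraries. In the other anomaly libraries Mb had at most 26.7 CPM. Mb was 1 of the 3 fibre markers that did not pass the test. The part of fibre content in the level of Pdk4 was not tested.

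**Figure D2:**
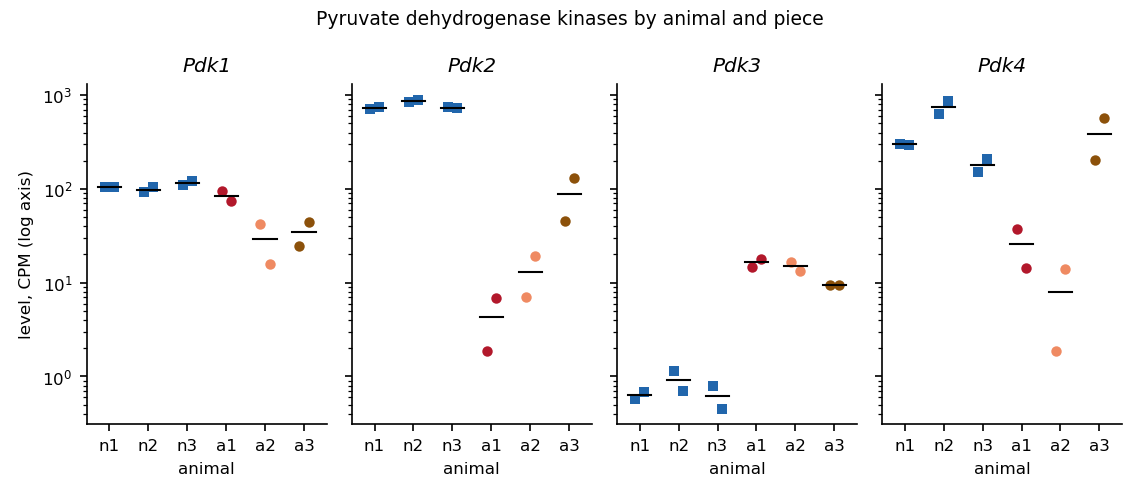
Levels of the 4 pyruvate dehydrogenase kinases in CPM on a log axis, for normal animals (n1 to n3, squares) and anomaly animals (a1 to a3, circles); points are libraries and bars are means of the 2 libraries of an animal. Pdk2 is lower and Pdk3 higher in all 3 anomaly animals, while Pdk4 in anomaly animal 3 reaches the normal range.

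Per kilobase of exon, Pdk2 made up 67.5% ± 11.7 (SD, n = 3) of the summed kinase level in normal muscle, Pdk4 28.6% ± 12.9, Pdk1 3.85% ± 1.23 and Pdk3 0.0757% ± 0.00524. In anomaly tissue the leading kinase differed by animal. Pdk1 led in animal 1 (41.8%), Pdk3 in animal 2 (36.6%) and Pdk4 in animal 3 (75.3%), where Pdk3 was 2.53%. The sum itself was 26.0, 16.0 and 146 CPM per kb in anomaly animals and 330, 499 and 298 CPM per kb in normal animals. The leading kinase also differed between the lesions of animal 2, with Pdk3 first in lesion 1 (44.3%) and Pdk2 first in lesion 2 (35.1%, against 29.9% for Pdk3), whereas both pieces of animals 1 and 3 had the same leading kinase. The difference between Pdk3 and Pdk4 within an animal was -0.47, 1.28 and -5.03 log2 units in anomaly animals and -7.53, -8.61 and -6.79 in normal animals. It is given as a description, because Pdk3 entered through its anomaly level. In all, 13 gene pairs were compared, and an exact two-sided permutation test of 3 against 3 animals cannot go below p = 0.1, or 0.144 adjusted over the 13 pairs, so none of them passed. The differences between Pdk1 and Pdk4 and between Pdk2 and Pdk4 overlapped between groups (exact permutation p = 0.4 and 0.2).

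The kinases can also be set against Pdha1, which encodes the subunit they act on. The difference Pdk3 minus Pdha1 was -1.50, -1.69 and -4.14 log2 units in anomaly animals and between -8.80 and -8.63 in normal animals, again a description because of how Pdk3 entered. The difference Pdk1 minus Pdha1 was 0.78, -0.91 and -2.43 in anomaly animals and -2.78, -2.94 and -2.46 in normal animals, so that anomaly animal 3 lay just outside the normal range, and its second piece, at -2.51, lay among the normal libraries (-3.04 to -2.35). The exact permutation p was 0.1, or 0.144 adjusted.

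Pdp1, encoding the catalytic subunit of the phosphatase that reactivates the complex, was lower in anomaly tissue. Its levels were 9.30, 10.8 and 29.9 CPM in anomaly animals and 98.6, 112.5 and 107.5 CPM in normal animals, a difference of -2.81 ± 0.42 (adjusted p = 0.00196). Of the 8 further genes of pyruvate metabolism listed, 6 were lower, 0 were higher and 2 did not pass (Pdp2, the other catalytic phosphatase subunit, at -0.53 with an adjusted p of 0.330, and Lipt2 at -0.64 with 0.0917, or 0.0466 without anomaly animal 1), with a median of -2.60. The largest fall was that of Ldhd, the D-lactate dehydrogenase (-4.64 ± 0.52, adjusted p = 0.000732), which had no read in the shallow library. Ldha, the lactate dehydrogenase subunit of glycolytic muscle, had 738, 235 and 256 CPM in anomaly animals and 4524, 4009 and 4227 CPM in normal animals (-3.62 ± 0.60, adjusted p = 0.00275). It was named after its values were seen.

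Pcx encodes pyruvate carboxylase, which makes oxaloacetate from pyruvate and refills the TCA cycle (ENSMUSG00000024892, protein coding, chromosome 19, 4510472 to 4621752). It had 4.60, 25.4 and 18.5 CPM in anomaly animals and 537, 200 and 230 CPM in normal animals, a difference of -4.63 ± 0.57 (adjusted p = 0.000981). In the shallow library Pcx rested on 2 reads. Within anomaly animal 2, lesion 2 had 46.2 CPM and lesion 1 had 4.505 CPM, and lesion 2 also held the highest level of fat transcripts, with Adipoq at 95.0 CPM, Plin1 at 99.3 CPM and Ucp1, the brown fat uncoupling protein, at 67.6 CPM. In the other anomaly libraries Adipoq reached at most 5.67 CPM and Ucp1 at most 0.441 CPM. The summed level of the 6 adipocyte markers was 195 to 3888 CPM in anomaly libraries and 197 to 511 CPM in normal libraries, and their part in the level of Pcx was not tested. The difference Pcx minus Pdha1 overlapped between groups (exact permutation p = 0.2). With anomaly animal 2 represented by lesion 1 alone, a setting added after the data were seen, 32 genes were again lower and 2 higher, and no call changed.

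In the TCA cycle, 12 of 13 genes were lower and 1 was higher, with a median of -2.82. Cs, citrate synthase, which condenses acetyl-CoA with oxaloacetate, had 131.5, 124 and 303 CPM in anomaly animals and 1174, 1365 and 1138 CPM in normal animals. It differed by -2.89 ± 0.40 (adjusted p = 0.00155), and no anomaly library, the highest at 400 CPM, reached the lowest normal library at 1068 CPM.

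The NAD-dependent isocitrate dehydrogenase, the enzyme of the cycle itself, is built from the products of Idh3a, Idh3b and Idh3g. Idh3a, the catalytic subunit (chromosome 9, 54586334 to 54604661), showed the largest fall of the cycle, with 52.3, 43.4 and 122 CPM in anomaly animals and 942, 926 and 839 CPM in normal animals (-3.83 ± 0.40, adjusted p = 0.000597). Idh3b and Idh3g differed by -2.96 ± 0.40 and -2.77 ± 0.41.

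The NADP-dependent isocitrate dehydrogenases moved in opposite directions. Idh2, the mitochondrial form, had 41.6, 111 and 124 CPM in anomaly animals and 344.5, 497 and 247 CPM in normal animals, and fell (-2.11 ± 0.50, adjusted p = 0.0112). Idh1, the form of the cytosol and peroxisomes (ENSMUSG00000025950, protein coding, chromosome 1, 65158616 to 65186500), had 36.8, 60.9 and 29.8 CPM in anomaly animals and 15.2, 23.0 and 19.9 CPM in normal animals, and rose (1.01 ± 0.28, adjusted p = 0.0202).

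All 6 anomaly libraries lay above the normal libraries in Idh1, between 28.2 and 82.9 CPM against 15.1 to 23.4 CPM, and the highest was lesion 2 of anomaly animal 2, the library with the most fat transcripts. Idh1 lost its call with the trimmed mean recomputed (0.58, adjusted p = 0.113), with piece 1 of every animal alone (0.69, adjusted p = 0.0565), and without normal animal 1 (adjusted p = 0.0745) or normal animal 3 (adjusted p = 0.0575). Per kilobase, Idh1 made up 45.3%, 34.0% and 18.3% of the sum of both NADP-dependent forms in anomaly animals and 5.03% ± 1.69 in normal animals. The difference Idh1 minus Idh2 was larger in every anomaly animal than in every normal animal, by 3.12 log2 units on average, and so was Idh1 minus Idh3a, by 4.84 (exact permutation p = 0.1 for each, the smallest possible).

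The oxoglutarate dehydrogenase complex oxidises the next intermediate. Ogdh, its E1 subunit, had the highest level per kilobase of the TCA genes in normal muscle (264 CPM per kb) and differed by -3.15 ± 0.46 (adjusted p = 0.00177). Dlst, its E2 subunit, showed the smallest fall of the cycle, with 144, 113.5 and 156 CPM in anomaly animals and 464, 484 and 401 CPM in normal animals (-1.74 ± 0.22, adjusted p = 0.00109). The means of the anomaly animals were close together in Dlst, over a range of 0.45 log2 units. Within anomaly animal 1, however, the 2 pieces differed by 1.02 log2 units, with 94.5 CPM in the shallow library and 193 CPM in piece 2. Dld, the E3 subunit that this complex shares with the pyruvate and branched-chain complexes, differed by -2.32 ± 0.33.

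Succinyl-CoA ligase joins the alpha subunit, from Suclg1, with 1 of 2 beta subunits, from Sucla2 for the ADP-forming and from Suclg2 for the GDP-forming enzyme. Sucla2 had 33.8, 43.9 and 113.5 CPM in anomaly animals and 573.5, 632 and 503 CPM in normal animals (-3.38 ± 0.45, adjusted p = 0.00131). Suclg2 had 14.4, 10.6 and 14.3 CPM in anomaly animals and 54.2, 48.5 and 49.3 CPM in normal animals (-1.92 ± 0.16, adjusted p = 0.000333). Suclg1 differed by -3.03 ± 0.32 and Fh1, fumarase, by -2.82 ± 0.28.

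Per kilobase, Suclg2 was 26.9%, 17.3% and 9.83% of the beta subunits in anomaly animals and 7.18% ± 0.855 in normal animals. The difference Suclg2 minus Sucla2 was larger in all 3 anomaly animals than in all 3 normal animals, by 1.47 log2 units (exact permutation p = 0.1, the smallest possible).

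Of the 8 further TCA genes listed, 6 were lower, 0 were higher and 2 did not pass, with a median of -2.49. Among the 6, Dhtkd1 had a mean of 0.948 CPM in anomaly and 5.87 CPM in normal tissue. It passed the filter on low values through the normal group only, so its inclusion already required it to be lower in anomaly tissue. Dhtkd1 was named after its values were seen. The largest positive value was 0.18 ± 0.16 for Aco1, the cytosolic aconitase, which did not pass (adjusted p = 0.341), with 31.6, 40.7 and 32.8 CPM in anomaly animals and 29.9 to 30.1 CPM in normal animals. Ogdhl was the other gene that did not pass (-1.26, adjusted p = 0.0532), though it passed without anomaly animal 3 (-1.64, adjusted p = 0.0161) and without the shallow library (-1.38, adjusted p = 0.0402).

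**Figure D3:**
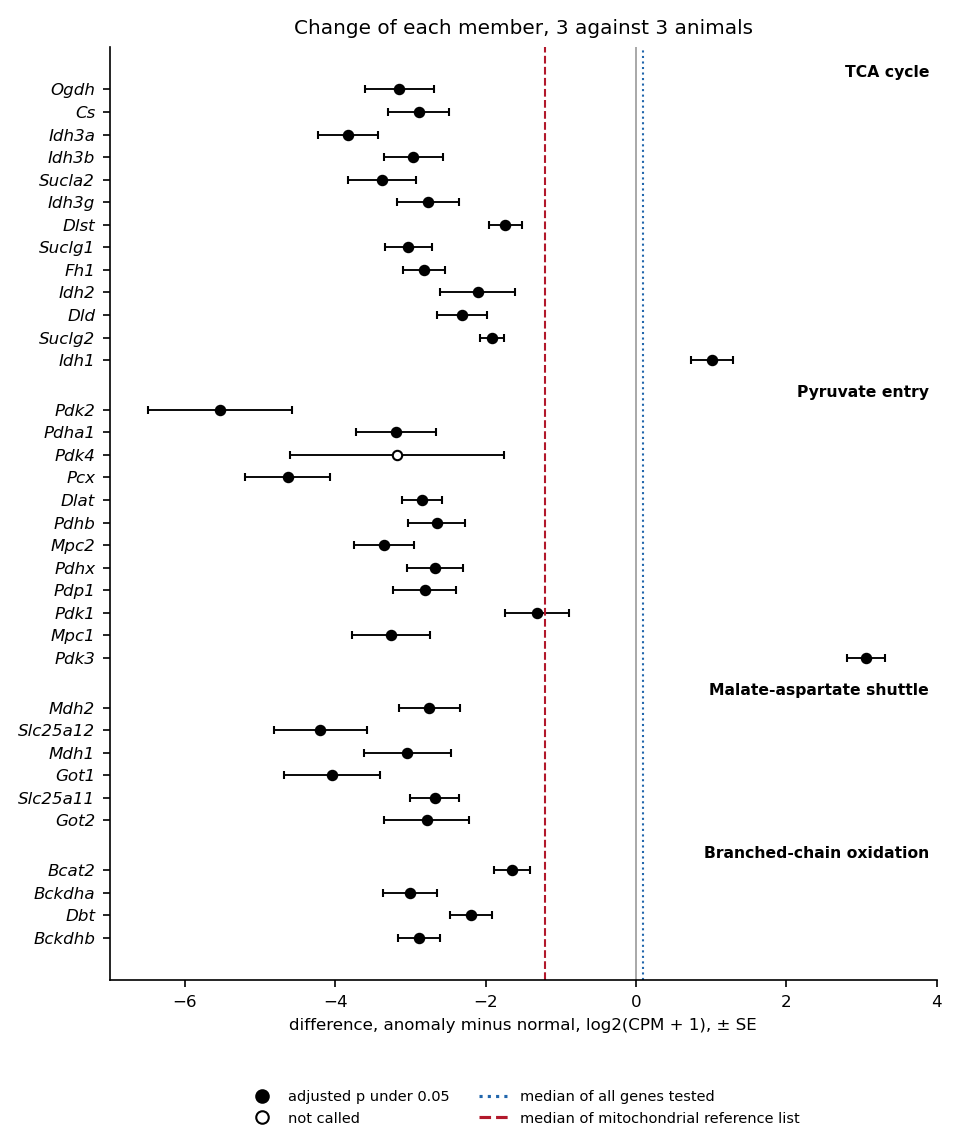
Difference of each of the 35 genes, anomaly minus normal in log2(CPM + 1), with bars of 1 SE (3 against 3 animals); filled points passed at an adjusted p under 0.05. Idh1 (1.01) and Pdk3 (3.06) lie right of 0, and 32 of the other genes lie left of the median of the mitochondrial reference list (-1.21, dashed) and of all genes (0.09, dotted), as does Pdk4, which did not pass.

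All 6 genes of the malate-aspartate shuttle were lower, with a median of -2.91. Slc25a12, encoding aralar, the aspartate-glutamate carrier of muscle and brain (ENSMUSG00000027010, protein coding, chromosome 2, 71271063 to 71367749), fell most, with 26.6, 29.0 and 137 CPM in anomaly animals and 953, 811 and 805 CPM in normal animals (-4.20 ± 0.62, adjusted p = 0.00183). Got1, the cytosolic aspartate transaminase, had 35.4, 17.0 and 122 CPM in anomaly animals and 765, 682 and 621 CPM in normal animals (-4.04 ± 0.64, adjusted p = 0.00235). Without anomaly animal 3 the differences were -4.94 for Slc25a12 and -4.76 for Got1, and without anomaly animal 2 that of Got1 was -3.44.

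Smaller falls were seen for Slc25a11, the oxoglutarate-malate carrier, and Mdh2, the mitochondrial malate dehydrogenase that also closes the TCA cycle. Slc25a11 had 43.8, 54.3 and 101.5 CPM in anomaly animals and 409, 379 and 395 CPM in normal animals (-2.68 ± 0.32, adjusted p = 0.000938). Mdh2 had 136, 122 and 307 CPM in anomaly animals and 1141, 1239 and 1041 CPM in normal animals (-2.75 ± 0.40, adjusted p = 0.00184). Mdh1, the cytosolic malate dehydrogenase, and Got2, the mitochondrial transaminase, differed by -3.04 ± 0.58 and -2.78 ± 0.57, or -3.69 and -3.45 without anomaly animal 3. Mdh1 and Mdh2 had the highest levels per kilobase of the 35 genes, both at 320 CPM per kb in normal muscle and at 50.9 and 52.9 CPM per kb in anomaly tissue, and the members of this pair did not differ beyond their spread.

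The fold change of the cytosolic transaminase was larger in size than that of the mitochondrial one. Got1 minus Got2 was 0.61, 0.36 and 0.66 log2 units in anomaly animals and 1.97, 1.77 and 1.68 in normal animals, without overlap (exact permutation p = 0.1, the smallest possible). The difference Mdh1 minus Mdh2 overlapped between groups (-0.29 on average, exact permutation p = 0.8).

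Slc25a13, encoding citrin, the aspartate-glutamate carrier best known from liver, rose. It had 15.6, 9.45 and 4.58 CPM in anomaly animals and 0.959, 0.8695 and 0.698 CPM in normal animals (2.37 ± 0.38, adjusted p = 0.00252). Like Pdk3, it passed the filter through the anomaly group only. Per kilobase it was 53.1%, 38.6% and 6.06% of both carriers in anomaly animals and 0.189% ± 0.0202 in normal animals. The sum of both carriers was 7.73, 6.44 and 19.9 CPM per kb in anomaly animals and 130, 111 and 110 CPM per kb in normal animals. The share of citrin was thus lowest in anomaly animal 3, where the level of aralar was highest.

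Of the 12 further genes of shuttles, citrate export, malic enzymes and glutamate, 5 were higher, 5 were lower and 2 did not pass (Slc25a1 and Glud1), with a median of 0.42. Besides Slc25a13, those that rose were Me2, a mitochondrial malic enzyme (2.86 ± 0.50, adjusted p = 0.00334), Pck2, the mitochondrial phosphoenolpyruvate carboxykinase (2.58 ± 0.27, adjusted p = 0.000609), Acly, which splits citrate in the cytosol (1.78 ± 0.45, adjusted p = 0.0135), and Slc25a10, the dicarboxylate carrier (1.43 ± 0.46, adjusted p = 0.0331). The other malic enzymes, Me1 (-4.03 ± 0.28, adjusted p = 0.000197) and Me3 (-4.71 ± 0.88, adjusted p = 0.0045), were lower. Both were named after their values were seen. In Slc25a10 the animals of the groups overlapped, with 15.4, 35.1 and 24.0 CPM against 5.81, 5.61 and 15.4 CPM, and the call was lost in 4 of 6 removals of 1 animal (anomaly animals 2 and 3, normal animals 1 and 2; adjusted p 0.0642 to 0.106). Acly lost its call without normal animal 1 (adjusted p = 0.0513), and Slc25a1 passed without normal animal 3 (1.77, adjusted p = 0.0135). The largest fall was that of Gpd1, the cytosolic enzyme of the glycerol phosphate shuttle, with 5.60, 96.3 and 27.8 CPM in anomaly animals and 1292, 1026 and 1088 CPM in normal animals (-6.14 ± 0.64, adjusted p = 0.000602). In the shallow library Gpd1 rested on 1 read. In anomaly animal 2 it had 3.66 CPM in lesion 1 and 189 CPM in lesion 2, the library with the most fat transcripts, and the difference was -7.03 with lesion 1 alone and -5.36 without anomaly animal 1.

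All 4 genes of branched-chain oxidation were lower, with a median of -2.54. Bckdha and Bckdhb encode the E1 subunits of the branched-chain dehydrogenase complex, the committed step, and fell most. Bckdha had 4.39, 7.49 and 13.6 CPM in anomaly animals and 75.3, 70.1 and 61.0 CPM in normal animals (-3.01 ± 0.36, adjusted p = 0.000914), though 1171 bases of its exons are shared with B3gnt8 on the other strand. Bckdhb had 3.67, 6.66 and 6.69 CPM in anomaly animals and 42.2, 34.1 and 54.2 CPM in normal animals (-2.89 ± 0.28, adjusted p = 0.000474).

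The other members of this step fell by less. Dbt, the E2 core, had 6.51, 10.4 and 12.7 CPM in anomaly animals and 51.5, 37.9 and 49.5 CPM in normal animals (-2.20 ± 0.28, adjusted p = 0.00117). Bcat2, the mitochondrial transaminase that acts first, had 21.2, 34.7 and 32.4 CPM in anomaly animals and 83.6, 81.0 and 109 CPM in normal animals (-1.65 ± 0.24, adjusted p = 0.00184). With library totals alone Bcat2 differed by -0.52 and did not pass (adjusted p = 0.0787).

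Bcat1, the cytosolic branched-chain transaminase, rose. It had 50.03, 33.7 and 17.0 CPM in anomaly animals and 0.160, 0.116 and 0.108 CPM in normal animals (4.79 ± 0.39, adjusted p = 0.000293), with no read in 1 normal library. It passed the filter through the anomaly group only, and its fold change depends on the pseudocount. Per kilobase Bcat1 was 49.7%, 28.9% and 18.04% of both transaminases in anomaly animals and 0.0606% ± 0.0193 in normal animals. The sum of both was 10.8, 12.5 and 10.1 CPM per kb in anomaly animals and 21.5, 20.8 and 27.9 CPM per kb in normal animals. Bcat1 minus Bcat2 was 1.26, -0.07 and -0.90 log2 units in anomaly animals and between -6.64 and -6.19 in normal animals.

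Of the 18 further branched-chain genes, 16 were lower, 1 (Bcat1) was higher and 1 did not pass, with a median of -2.41. The largest fall was that of Aldh6a1, the methylmalonate semialdehyde dehydrogenase of valine breakdown (-4.09 ± 0.55, adjusted p = 0.00137), or -4.69 without anomaly animal 3. Over the 46 further pathway genes together, 33 were lower, 6 were higher and 7 did not pass, with a median of -2.35. These counts are a description, because the filter already set the direction of some genes. Slc25a13 and Bcat1 passed it through the anomaly group only, and Dhtkd1 through the normal group only.

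**Figure D4:**
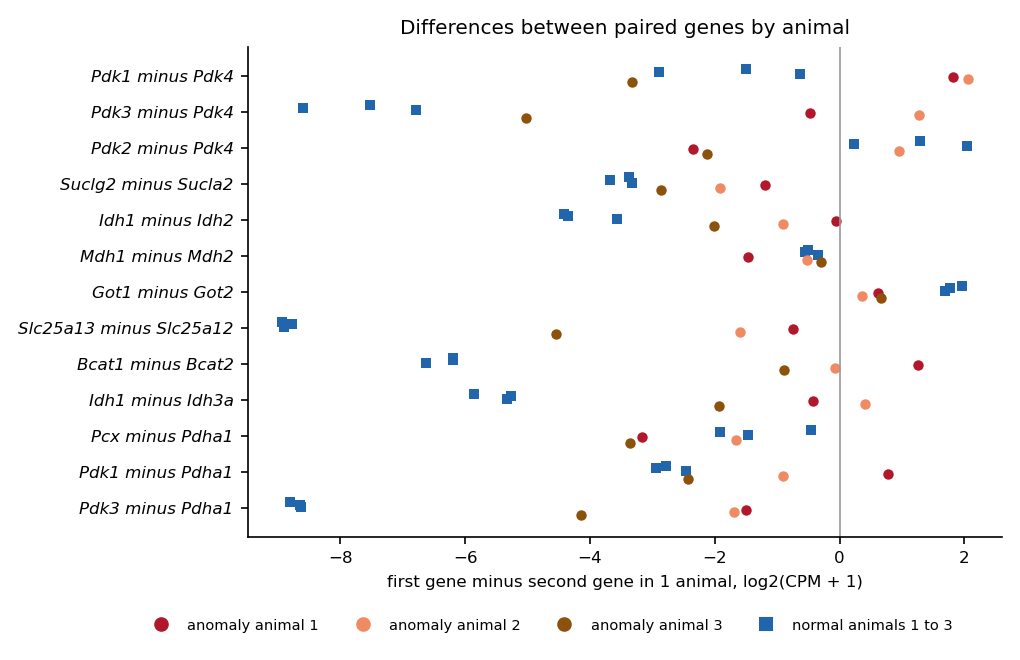
Difference between the genes of 13 pairs within each animal, in log2(CPM + 1), with circles for anomaly animals and squares for normal animals. The groups do not overlap in Suclg2 minus Sucla2, Idh1 minus Idh2, Got1 minus Got2, Idh1 minus Idh3a and Pdk1 minus Pdha1. Nor do they in the pairs with Pdk3, Slc25a13 or Bcat1. Those genes passed the filter through the anomaly group only, so their separation is a description. The groups overlap in Pdk1 minus Pdk4, Pdk2 minus Pdk4, Mdh1 minus Mdh2 and Pcx minus Pdha1.

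In the 35 genes the anomaly animals differed among themselves far more than the normal animals. The median over the 35 genes of the range between animals was 1.5 log2 units in the anomaly group and 0.251 in the normal group. The range was wider in the anomaly group in 35 of 35 genes. The share of all genes tested with a wider anomaly range was not computed, so this count is not read as particular to the 35 genes. The median gap between the 2 libraries of an animal was 0.765 log2 units in anomaly animals and 0.064 in normal animals. Of the 32 genes that were lower, anomaly animal 3 had the smallest fall in 30, and the largest fall was in animal 1 for 23 and in animal 2 for 9. The second piece was higher than the first in 31, 25 and 32 of these 32 genes in animals 1, 2 and 3. In animal 1 the first piece is the shallow library. Over the 35 genes the median difference from the normal mean was -3.89 there and -2.83 in the second piece. In lesions 1 and 2 of animal 2 it was -3.33 and -3.01, so the order of animals 1 and 2 by this median rests on the shallow library.

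The median difference of the 35 genes from the normal mean was -3.36, -3.21 and -1.96 in anomaly animals 1, 2 and 3. The median of the 12 fibre markers was -8.66, -9.58 and -3.68 in the same animals, that of the 8 endothelial markers was 3.14, 3.70 and 3.92, and that of the mitochondrial reference genes was -1.21, -1.29 and -1.03. Anomaly animal 3 had the smallest median fall both in the 35 genes and in the fibre markers, and the part of fibre content in the differences was not tested. Left out in turn, the animals gave 31 to 32 genes lower and a median between -3.30 and -2.63. Without the shallow library, 32 were lower and 2 higher, with a median of -2.71.

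**Figure D5:**
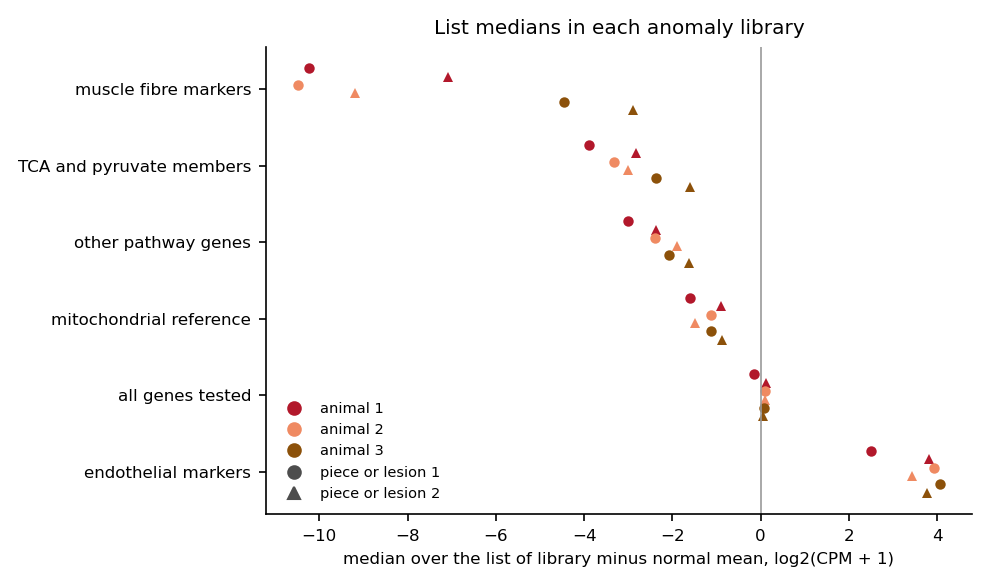
Median over each gene list of the difference between an anomaly library and the normal mean, in log2(CPM + 1), with circles for the first and triangles for the second piece or lesion of each anomaly animal. Fibre markers and the TCA and pyruvate genes lie nearest to 0 in both libraries of anomaly animal 3, while endothelial markers lie above 0 in all 6 libraries.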

How the data were processed

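Messenger RNA of 12 libraries from 6 animals was measured. Per the labels' protocols, a Qiagen RNeasy kit gave the RNA and 1 ug of it entered an unstranded TruSeq library with poly-A selection. The build was mm10 (GRCm38) and the tools were STAR and limma, versions not stated, per the submitters' processing notes. The authors deposited log2 values of CPM for 30389 genes, with a common floor of -6.707. CPM was recovered by removing the floor, and 100% of the values were whole multiples of 1 read within 0.01. Piece 1 of anomaly animal 1 had 7573 genes at 1 read and 1354 at 2, so its units may not be reads as sequenced.

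The 2 libraries of an animal were averaged on the log2(CPM + 1) scale. The 14687 genes whose group mean reached 1 CPM in either group were fitted, 3 against 3 animals, using limma (version 3.58.1, R 4.3.3, with a trend and without the robust option), with Benjamini-Hochberg adjustment at 0.05; the 35 genes were all among them. The fold change is on the log2(CPM + 1) scale, which understates changes of low genes. Gene pairs were compared by an exact permutation test. The steps were run on simulated data with few changed genes, the same spread in both groups and no shift in RNA composition. That simulation does not cover the unequal spread and the composition shift of these data. The 35 genes, the further lists and the rule for named genes were chosen with earlier results of these data known. That rule named every gene of the set, gave animal values for the kinases, phosphatases, carriers, Pcx, Pdha1, genes that rose or did not pass, and the 2 largest and 2 smallest changes per role, and of other lists the largest rise and fall, all that rose and the partners of pairs. Genes outside it are said to be chosen after their values were seen, or are those that did not pass in a list. A few genes of these lists are not reported here by name. Exon lengths and coordinates came from GENCODE and start sites from RefSeq (GRCm38.p6).

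Alternatives were library totals alone, trimmed mean of M-values and median-of-ratios scaling, pseudocounts of 0.25 and 5, no filter and one of 5 CPM, each piece alone, no shallow library, 12 libraries with the animal as a random block with and without the piece number, voom on summed reads, and each animal left out.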

Additional observations from a re-analysis of the deposited data

Results flagged for a closer look

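In the 6 normal libraries, the lowest value of Dld and of Pdha1 stood apart from the rest, both in piece 1 of normal animal 3. For Pdha1 it was 9.14 log2(CPM + 1), against 9.50 in the next library and 9.58 in the highest, so that the gap made up 0.815 of the range. For Dld it was 7.84, against 8.196 in the next library and 8.355 in the highest, a gap of 0.690 of the range. Both gaps exceed the 95% limit of Dixon's test for 6 values. That limit is for independent values, whereas these libraries were 2 from each of 3 animals. Both values lay above every anomaly library of the same gene. These were 2 of 70 groups of libraries examined (35 genes in 2 groups), and both flags fell on the same library. A chance rate of about 1 group in 20 would hold for independent values only.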

How the results depend on the processing

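Over 20 other settings, 29 to 33 of the 35 genes were lower and 1 or 2 were higher, and no gene changed direction. The number of genes higher was 1 with the trimmed mean of M-values recomputed and 1 with piece 1 of every animal alone, and 1 to 2 when each animal was left out, Idh1 being the gene lost each time. The median log2 fold change was -1.71 with library totals alone and -3.30 to -2.63 when each animal was left out. Idh2 (-0.96, adjusted p = 0.104), Pdk1 and Bcat2 lost their call with library totals. Pdk1 also lost it with no filter on low values (adjusted p = 0.0756) and piece 1 alone (0.0773). Pdk4 passed without anomaly animal 3 and with all 12 libraries fitted and a random effect for animal (adjusted p = 0.023). With piece numbers added there as a replicate block, 33 genes were lower and 2 higher, as without it, and the adjusted p of Pdk4 was 0.0268; libraries of the same piece number across groups did not deviate together (median r = 0.00562, against -0.0123 for other numbers), so the numbers do not pair samples. Mdh1 minus Mdh2 ran from -0.528 to 0.06 as each animal was left out, and turned positive without anomaly animal 1. Bcat1 minus Bcat2 was 8.04 with a pseudocount of 0.25 and 4.31 with one of 5. The cause of these shifts was not tested. Depth limits Pdk2, Mpc1 and Bckdhb in the shallow library, where each rested on 1 read. Pcx, Bckdha and Dbt rested on 2 reads there. Of the further genes named, Gpd1, Me3, Ogdhl and Dhtkd1 also rested on 1 read there.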
